A study of Mus musculus with 6 samples.

Results

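The transcripts described here are those that the mouse annotation GENCODE M21 types as retained intron. A transcript was counted as a member if it carried that type and if its identifier, without the version number, was among the transcripts quantified in every mouse. There were 21457 such transcripts in 9145 genes, out of 118783 quantified transcripts, which is 18.1% of them. A further 391 retained-intron transcripts of the annotation were not analysed here, and 390 of those lie in genes that are not protein-coding. Of the members, 21421 belong to protein-coding genes and 36 to other genes.

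RNA of the hippocampus was sequenced from 3 wild-type (WT) mice and 3 Prmt9 knockout (KO) mice of the B6J strain, all females of 2 weeks of age. In the knockout, a CMV-Cre transgene had removed the loxP-flanked exon 5 of Prmt9 throughout the body, and the controls were littermates. The libraries were made from polyadenylated RNA, and the abundance of each transcript was estimated with kallisto as TPM, a share of all transcript molecules that corrects for transcript length and sums to the same total in every mouse. Estimated counts summed to between 194098391 and 286771677 per mouse. The question was whether transcripts that keep an intron take up a different share of the RNA when PRMT9 is lost.

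Intron retention is the form of alternative splicing in which an intron stays in the polyadenylated transcript. Such transcripts are often kept in the nucleus or degraded after translation begins, because the intron usually brings a stop codon into frame, and neurons use retention to hold back transcripts until they are needed. PRMT9 is an arginine methyltransferase whose known substrate is SF3B2, a subunit of the SF3B complex of the U2 small nuclear ribonucleoprotein, which recognizes the branch point near the 3′ end of an intron.

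The type name covers transcripts of unlike structure. A total of 6878 members (32.1%) held at least 1 whole intron of a transcript of another type inside an exon of their own, 4269 of them exactly 1 intron and 2609 of them 2 or more. The other 14579 held no whole intron, and 14476 of these started or ended inside an intron. Over all 21457 members the median length was 875 bases, against 1820 bases for protein-coding transcripts, and the median number of exons was 3. The median member shared most of its sequence with other transcripts of its gene, since 33.8% of its bases lay in no other transcript. For 2382 members (11.1%) no base was their own, so that reads could be assigned to them only through combinations of exons or not at all.

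The whole introns held by members were short. There were 10057 of them in 4209 genes, with a median length of 287 bases (interquartile range 124 to 738). The 131985 other introns of the protein-coding transcripts of the same genes had a median of 1492 bases (interquartile range 523 to 3814). Introns under 150 bases made up 30.05% of the retained introns and 9.36% of the other introns. GT-AG ends were found in 97.7% of the retained introns, GC-AG ends in 1.42%, and their median G+C content was 51.1%. The retained introns whose members summed to at least 10 TPM had a median of 238 bases and 54.9% G+C, whereas those under 1 TPM had a median of 384 bases and 48.5% G+C. These are properties of the annotation and of the estimated levels together, and no test was made of them.

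**Figure D1:**
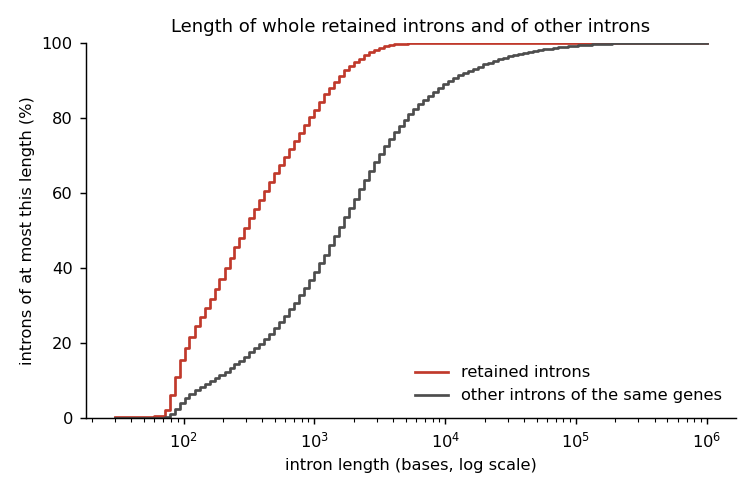
Cumulative length of introns, with intron length in bases on a log axis and the percent of introns of at most that length on the vertical axis. The curve of the 10057 retained introns lies left of the curve of the 131985 other introns of the same genes, with medians of 287 and 1492 bases.

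Of the retained introns, 79.2% lay between the start and stop codon of a coding transcript, and 88.8% of those 7964 introns brought a stop codon into the reading frame. The length was a multiple of 3 in 33.2% of them. The pentamer CTNAC, a short form of the mammalian branch point, was searched on the transcribed strand. Among the 8300 retained introns of at least 100 bases, it was present in the last 50 bases of 27.2% and in the first 50 bases of 13.7%. A match is a run of letters and was not shown to be a branch point.

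Examples of both structures are printed from the GENCODE M21 transcript sequences (build GRCm38), for genes whose share results are given further on. The first 2 are whole introns kept within coding sequence, with the GT and AG at their ends in capitals. They are intron 6 of Tmem120a at chr5:135736663-135736745 (minus strand, 83 bases) and intron 8 of Dll3 at chr7:28293927-28294040 (minus strand, 114 bases), numbered along the protein-coding transcript of highest mean TPM. CTNAC occurs 2 times in the first and 1 time in the second.
Tmem120a whole intron: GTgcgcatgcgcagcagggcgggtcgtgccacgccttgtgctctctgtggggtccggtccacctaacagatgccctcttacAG
Dll3 whole intron: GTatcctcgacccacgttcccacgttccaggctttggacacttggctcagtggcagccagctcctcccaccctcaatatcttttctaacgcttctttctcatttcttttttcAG

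The next 4 are borders between exon and retained intron, all on the plus strand, with 20 exon bases in capitals and the retained intron in lower case. For Tnik they are the end of intron 32 with the start of the last exon (chr3:28667819-28667918) and the start of intron 31 (chr3:28665820-28665919). For Ntsr2 it is the end of intron 2 (chr12:16658285-16658384), a whole retained intron of 1494 bases. For Ppia it is the start of intron 3 (chr11:6418295-6418437), of which the member of highest TPM keeps 123 bases and then ends.
Tnik 3′ splice site: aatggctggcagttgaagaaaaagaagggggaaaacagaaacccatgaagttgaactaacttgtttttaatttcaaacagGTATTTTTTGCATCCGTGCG
Tnik 5′ splice site: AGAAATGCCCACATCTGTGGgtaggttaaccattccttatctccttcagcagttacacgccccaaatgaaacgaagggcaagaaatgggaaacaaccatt
Ntsr2 3′ splice site: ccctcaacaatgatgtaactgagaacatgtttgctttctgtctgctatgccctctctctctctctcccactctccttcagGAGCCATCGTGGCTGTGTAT
Ppia 5′ splice site: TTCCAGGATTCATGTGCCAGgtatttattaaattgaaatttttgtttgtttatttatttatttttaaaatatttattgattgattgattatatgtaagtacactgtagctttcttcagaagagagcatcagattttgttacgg

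Members were widely detected at low levels. Of the 21457, 16213 were above 0 TPM in all 6 mice and 641 were at 0 in all 6. A mean of at least 1 TPM was reached by 10162 members, of at least 10 TPM by 1488, and of at least 100 TPM by 39. The 10 members of highest mean TPM held 4.74% of all retained-intron TPM and the highest 100 held 16.3%.

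The members together took up 5.66%, 7.50% and 7.60% of all TPM in the WT mice and 6.40%, 7.25% and 7.62% in the KO mice. Their WT mean was 6.92% ± 1.09 and their KO mean 7.09% ± 0.627 (SD, n = 3 mice each). The difference of 0.169 percentage points was smaller than the spread within either genotype (p = 0.8, exact two-sided permutation test, in which the smallest possible p is 0.1). The lowest value in each genotype was that of the mouse numbered 1. Without WT replicate 1 the difference turned to -0.461 percentage points, without KO replicate 3 to -0.0967, and without both mice numbered 1 to -0.115, so its direction depended on single mice.

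**Figure D2:**
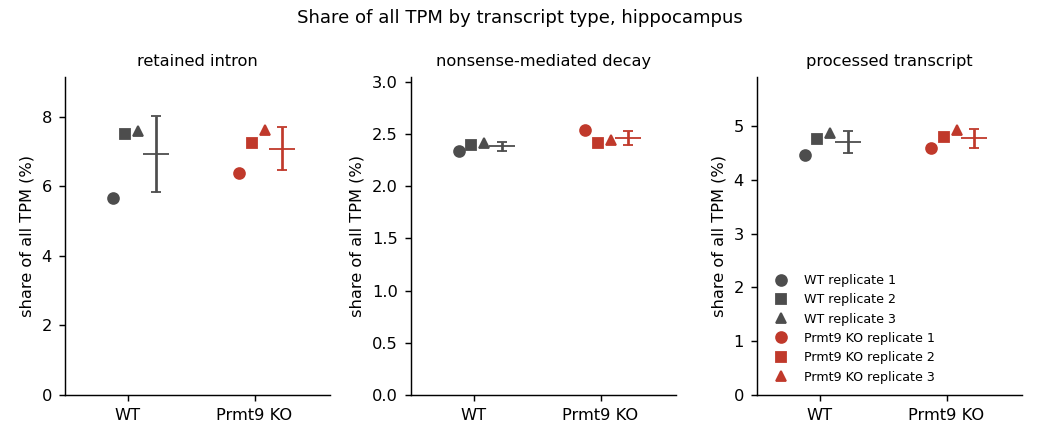
Share of all TPM (percent) taken by retained-intron, nonsense-mediated decay and processed transcripts in each mouse, with axes that start at 0. Points are mice and bars are the mean ± SD of 3 mice. Retained-intron shares span 5.66% to 7.60% in the WT mice and 6.40% to 7.62% in the KO mice, with the mice numbered 1 lowest in both.

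For a pair of other transcript types the genotypes overlapped as well. Nonsense-mediated decay transcripts, those with a stop codon placed so that the transcript is degraded, took up 2.38% ± 0.0430 of TPM in WT and 2.47% ± 0.0654 in KO (exact permutation p = 0.2, n = 3 each). Processed transcripts, which have no open reading frame, took up 4.70% ± 0.210 and 4.77% ± 0.172 (exact permutation p = 0.6, n = 3 each).

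The mice numbered 1 stood apart in more than the total. The number of members above 0 TPM was 16838 in WT replicate 1 and 19439 in KO replicate 1, against 19708 to 19786 in the other mice. Principal components were taken over single genes, on the log2 ratio of retained-intron TPM to the remaining TPM after adding 0.1 TPM. The first held 72.5% of the variance and placed WT replicate 1 at -60.3, KO replicate 1 at -13.5 and the other mice between 16.2 and 19.6. Each list of cell type markers was detected in all mice, and Prmt9 summed to 11.8, 15.2 and 15.0 TPM in WT and 3.93, 4.61 and 4.67 TPM in KO. The summed TPM of 3 oligodendrocyte markers (Mbp, Mog and Mag) was 1581 in WT replicate 1 and 766 in KO replicate 1, against 5247 to 7427 in the others. That of 4 excitatory neuron markers was 1680 and 1770 in the mice numbered 1, against 2694 to 2870, and that of 3 choroid plexus markers ranged from 604 to 7239 with WT replicate 1 highest. The part of these differences in the shares was not tested, and fewer cells of a type cannot be told apart from less RNA per cell in bulk tissue.

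For each gene, the retained-intron share is the summed TPM of its members divided by the TPM of all its transcripts. Of the 9145 genes, 1022 had a mean under 1 TPM, 2582 of the rest had a share under 0.05 (mean over the 6 mice) and 15 had a share over 0.95, which left 5526 genes for the test. The median share over these genes was 0.191 in WT and 0.194 in KO. It was at least 0.5 in 560 genes and at least 0.2 in 2661 genes. By mouse, the median was 0.159, 0.204 and 0.203 in WT and 0.174, 0.200 and 0.206 in KO. WT replicate 1 had the lowest share of the 6 mice in 2869 of the 5526 genes, and KO replicate 1 in 1238.

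No gene passed the test. The log2 ratio of retained-intron TPM to the remaining TPM of the gene was compared with limma, in one table with the other transcript types of all genes that are not protein-coding. It held 11485 gene and type combinations, of which 2164 were of nonsense-mediated decay transcripts, 3710 of processed transcripts and 85 of other types. At an adjusted p (Benjamini-Hochberg) of at most 0.01 and a share difference of at least 0.05, 0 of 5526 genes were called, and 0% of the whole table. The lowest adjusted p was 0.999977. At an unadjusted p under 0.05 there were 86 genes, which is 1.56% of the genes against 2.32% of the whole table. Of the 5526 genes, 45 had this p and a higher share in KO, against 139 of the 11485 combinations (1.21%). Another 41 had a lower share, against 127 (1.11%). The share difference had a median of 0.00327 and an interquartile range from -0.0110 to 0.0186. The edgeR test for differential transcript usage (diffSpliceDGE) called 2 of 17654 members, against 24 of all 69062 transcripts it tested (0.0348%). Both members are described with the single transcripts.

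The shares of all 3 KO mice lay above those of all 3 WT mice in 258 genes and below them in 192, together 8.14% of the genes. In the whole table, 9.06% of the combinations were apart in this way, 5.2% higher and 3.87% lower in KO. With a difference in means of at least 0.05 as well, 104 of the 5526 genes remained higher and 71 lower. In the whole table of 11485 combinations, 266 (2.32%) were higher and 178 (1.55%) lower. Read against these, the retained-intron shares were not apart more often than those of the other types. Without both mice numbered 1 the counts were 1210 above and 1210 below (42.7% of genes and 41.9% of the table). Smaller groups separate more often by themselves, and their part in this rise was not tested.

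**Figure D3:**
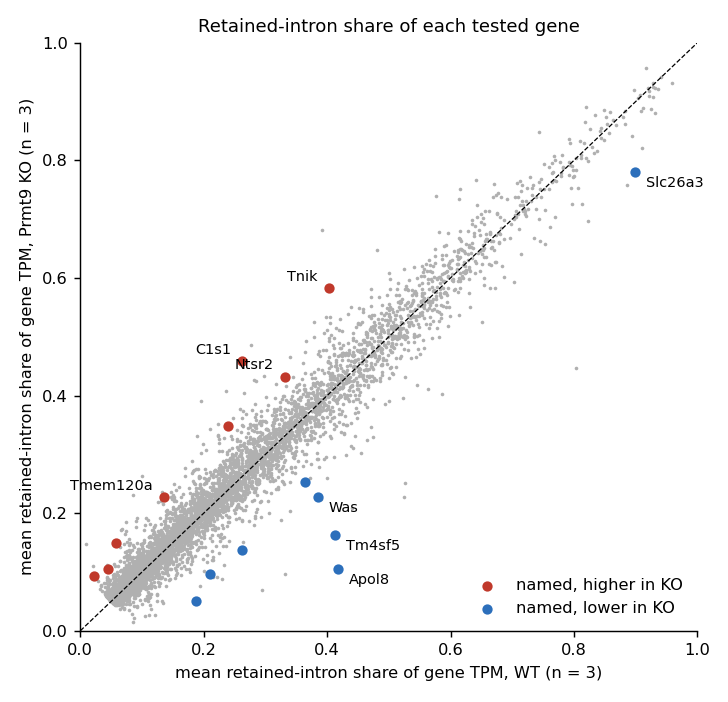
Mean retained-intron share of each of the 5526 tested genes in WT (horizontal) and Prmt9 KO (vertical), each over 3 mice, with the line of equal shares dashed. Most genes lie near the line. Colored points are the 16 named genes with separate shares, among them Tnik, which moves from 0.402 to 0.583.

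The gene with the lowest unadjusted p among those with a higher share in KO was Tnik (ENSMUSG00000027692, chromosome 3, bases 28263214 to 28675858). It encodes a serine/threonine kinase present at synapses and in Wnt signaling. Its 8 members made up 0.409, 0.394 and 0.404 of the gene in WT and 0.599, 0.588 and 0.561 in KO. The genotypes did not overlap, and the difference of 0.180 was large beside SDs of 0.00779 and 0.0194. On the log2 ratio scale it was 1.05 with a standard error of 0.14 (limma, unadjusted p = 0.000261, adjusted p = 0.999977). The adjusted p ranged from 0.0326 with array weights, which give less weight to the mice numbered 1, to 1 without a filter on low values, and never passed 0.01.

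In Tnik, the level of the members and that of the other transcripts were both well above 1 TPM. Retained-intron TPM was 18.1, 33.9 and 35.3 in WT and 58.9, 84.4 and 78.8 in KO. The remaining transcripts stood at 26.1, 52.2 and 52.0 TPM in WT and 39.5, 59.2 and 61.7 TPM in KO, with the genotypes overlapping. WT replicate 1 was the lowest mouse on both. The intron bases kept by the members that carry the share lie near the 3′ end of the gene. ENSMUST00000192205 begins within intron 32, keeps the last 1053 bases of it and runs into the last exon, across the 3′ splice site printed above. It stood at 10.7, 16.7 and 17.2 TPM in WT and 32.9, 42.8 and 40.8 TPM in KO. ENSMUST00000159733 ends 106 bases into intron 31, and was at 5.27, 7.96 and 8.49 TPM in WT and 15.9, 20.4 and 18.5 TPM in KO. ENSMUST00000162037 starts near the other end of the gene, at base 28263563, and ends 221 bases into intron 32. It was at 1.74, 7.73 and 8.13 TPM in WT and 9.32, 19.96 and 18.1 TPM in KO. In all 3 the genotypes did not overlap, and none of the 3 holds a whole intron.

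Ntsr2, a neurotensin receptor found on astrocytes (ENSMUSG00000020591, chromosome 12), was the other abundant gene among those higher in KO. Its share was 0.321, 0.332 and 0.340 in WT and 0.419, 0.420 and 0.457 in KO, without overlap, and the log2 ratio difference was 0.62 with a standard error of 0.15 (limma, unadjusted p = 0.00541, adjusted p = 0.999977). The single member, ENSMUST00000222957, keeps the whole of intron 2 and has 1494 bases of its own. It stood at 36.1, 64.9 and 67.6 TPM in WT and at 44.4, 78.9 and 89.4 TPM in KO, so its level overlapped between genotypes. The remaining transcripts were at 76.5, 131 and 131 TPM in WT and 61.7, 109 and 106 TPM in KO, which overlapped as well.

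The other 6 genes named for a higher share in KO had lower expression. Tmem120a, a membrane protein of the nuclear envelope, had shares of 0.131, 0.139 and 0.134 in WT and 0.206, 0.242 and 0.232 in KO at a gene level between 13.9 and 21.9 TPM. It has a member with the 83-base intron printed above, ENSMUST00000127156, and another that keeps 88 bases of intron 7, ENSMUST00000141779. The first was at 0.944, 1.25 and 1.15 TPM in WT and 1.09, 1.52 and 0.506 TPM in KO, and the second at 1.93, 0.722 and 0.723 in WT and 3.03, 1.98 and 2.87 in KO. The share difference lay in the second of them, since the member with the whole intron overlapped widely between genotypes. Dll3, a ligand of the Notch pathway, had shares of 0.234, 0.264 and 0.222 in WT and 0.365, 0.331 and 0.350 in KO. Its member with the printed 114-base intron was at 1.08, 0.662 and 0.480 TPM in WT and 1.65, 0.964 and 1.07 TPM in KO, with overlap.

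C1s1, a protease of the complement cascade, had a share of 0.204, 0.260 and 0.321 in WT and 0.403, 0.499 and 0.472 in KO, in a gene of 0.577 to 2.31 TPM. The remaining 3 were Tnnt1 (a troponin of slow muscle), Zfand4 (a zinc finger protein) and Kif19a (a kinesin of cilia). Their mean share differences were 0.0702, 0.0922 and 0.0607. All 3 had a WT mean share under 0.1, and Tnnt1 had no retained-intron TPM in WT replicate 1. Over estimated counts in place of TPM, the difference was 0.0432 for Tmem120a, 0.0555 for C1s1 and 0.0375 for Dll3, each less than the TPM difference of 0.0918, 0.196 and 0.109 by more than 1.5 times.

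The 8 genes named for a lower share in KO were all of low expression, with gene levels between 0.469 and 7.08 TPM in every mouse. The lowest unadjusted p was that of Tm4sf5, a membrane protein of the tetraspanin kind, with shares of 0.410, 0.489 and 0.341 in WT and 0.238, 0.0950 and 0.155 in KO (limma, unadjusted p = 0.000704, adjusted p = 0.999977). Its gene level was at most 2.58 TPM. Was encodes the actin regulator of blood cells that is lost in Wiskott-Aldrich syndrome. Its share was 0.376, 0.354 and 0.424 in WT and 0.238, 0.213 and 0.231 in KO. Its member, which keeps a whole intron of 267 bases, was at 0.517, 0.802 and 0.957 TPM in WT and 0.372, 0.468 and 0.438 TPM in KO, without overlap but at under 1 TPM in all 6 mice.

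Il1rapl2, a synaptic relative of the interleukin-1 receptor, had shares of 0.188, 0.246 and 0.199 in WT and 0.0948, 0.107 and 0.0866 in KO. Apol8, of the apolipoprotein L family, had the widest spread, with 0.596, 0.363 and 0.295 in WT and 0.0567, 0.123 and 0.134 in KO. WT replicate 1 was far above the other WT mice there, and its only member has 11 bases of its own. The remaining 4 were Pkd1l3 (of the polycystin family), Slc37a2 (a sugar phosphate transporter), Slc26a3 (an anion exchanger) and Alox5 (the 5-lipoxygenase of leukotriene synthesis), with mean share differences of -0.125, -0.136, -0.119 and -0.112. Over estimated counts the difference was -0.0714 for Was, -0.156 for Tm4sf5 and -0.0725 for Slc37a2, against -0.157, -0.251 and -0.136 over TPM, while that of Slc26a3 was -0.209.

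**Figure D4:**
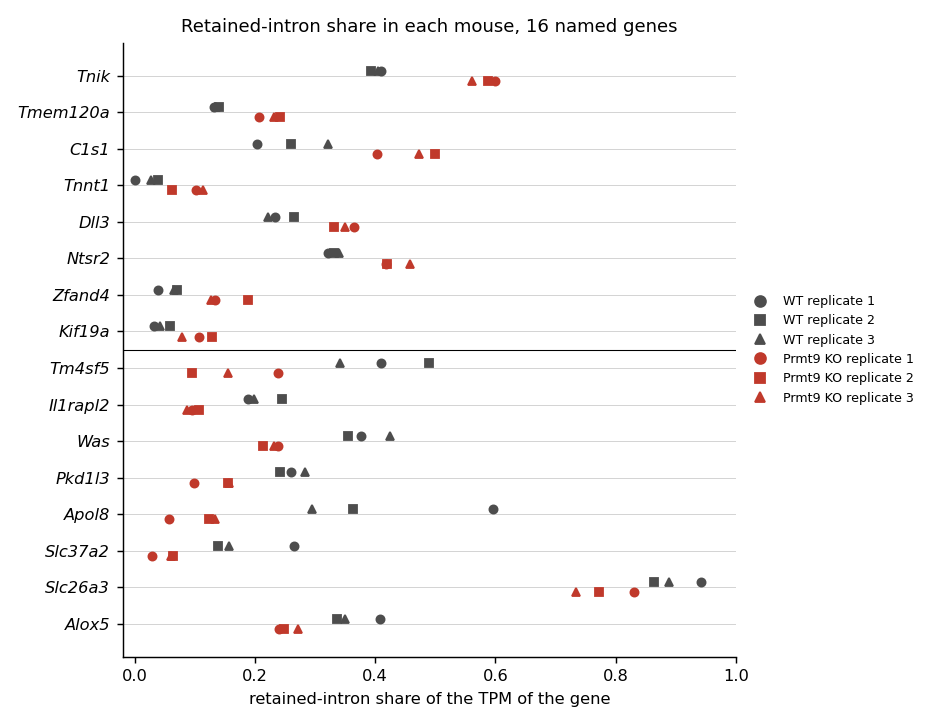
Retained-intron share of the TPM of the gene (horizontal axis) in each of the 6 mice for the 8 genes named for a higher share in KO (above the line) and the 8 named for a lower share (below it). WT mice are gray and KO mice red. The genotypes do not overlap in any of the 16, which is how they were chosen, and adjusted p was 0.999977 for each.

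The genes with the most retained-intron TPM were not apart between the genotypes, except for Itm2b. Ppia, the cyclophilin A gene, had the highest mean, with 953, 643 and 637 TPM in WT and 1050, 688 and 632 TPM in KO. Nearly all of it was ENSMUST00000135789, which ends within intron 3 as printed above. The share of the gene was 0.237, 0.338 and 0.321 in WT and 0.261, 0.314 and 0.304 in KO. Ppia has many processed copies in the genome, so the division of its reads is uncertain. Uchl1, a ubiquitin hydrolase abundant in neurons, had shares of 0.488, 0.552 and 0.572 in WT and 0.546, 0.585 and 0.607 in KO. Its main member ENSMUST00000176015 starts 52 bases before the end of intron 2, and those 52 bases are the only ones that are its own.

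Itm2b, a membrane protein cut by furin, had shares of 0.513, 0.489 and 0.541 in WT and 0.588, 0.545 and 0.542 in KO, apart by a narrow margin (limma, unadjusted p = 0.168, adjusted p = 0.999977). Rps16, of the small ribosomal subunit, had the highest share of this group at 0.912 to 0.934 in the 6 mice. Its 2 members, of 628 and 518 bases, have only 89 and 68 bases of their own. The division of its reads among transcripts was not tested, so this share does not show how much Rps16 RNA keeps an intron. Ndrg4 had shares between 0.152 and 0.231, and Gpi1, the glucose-6-phosphate isomerase, between 0.204 and 0.318. In Ppia, Ndrg4, Gpi1 and Uchl1 the mouse with the lowest share was numbered 1.

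Genes for splicing regulators are known for retained introns by which they limit their own protein. Of 20 genes for SR proteins, which bind exons and recruit the splicing machinery, and for the CLK and SRPK kinases that phosphorylate them, 17 have members and 15 were tested. None were called and none had an unadjusted p under 0.05, against 2.32% of the whole table. The share was higher in KO in 10 and lower in 5, with a median difference of 0.00301 against 0.00327 over all genes tested. In 14 of the 15 the difference was under 0.05 in either direction. The genotypes were apart in 1 of them, Srsf11, named after its values were seen, with a mean share of 0.665 ± 0.00387 in WT and 0.650 ± 0.00537 in KO. Of all combinations in the table, 9.06% were apart, so 1 of 15 is near the background. Shares were high in this group, with a median of 0.352 in WT and 0.380 in KO against 0.191 and 0.194 over all genes tested.

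Srsf6 had the lowest unadjusted p of the group. Its member ENSMUST00000193611, which holds whole introns, was at 17.9, 41.2 and 36.8 TPM in WT and 17.9, 27.4 and 28.4 TPM in KO, and the share of the gene was 0.246, 0.353 and 0.321 in WT and 0.204, 0.279 and 0.281 in KO. The genotypes overlapped, and the log2 ratio difference was -0.37 with a standard error of 0.28 (limma, unadjusted p = 0.224, adjusted p = 0.999977). Without WT replicate 1 the share difference went from -0.0522 to -0.0827. Clk3 had shares of 0.358, 0.527 and 0.505 in WT and 0.496, 0.512 and 0.517 in KO. Its mean difference of 0.0454 came from WT replicate 1, without which it was -0.00730.

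The proteins that recognize the branch point and 3′ splice site include the SF3A and SF3B subunits, SF1 and the U2AF heterodimer. Of 19 such genes, 16 have members and 14 were tested. None were called or had an unadjusted p under 0.05 (0% and 2.32% in the whole table), 10 were higher and 4 lower in KO, and all 14 differences were under 0.05 in either direction, with a median of 0.00552. Sf1, which binds the branch point before U2, was the 1 gene of the 14 with separate genotypes, against 9.06% of the whole table. Its share was 0.246, 0.260 and 0.257 in WT and 0.273, 0.288 and 0.297 in KO, a difference of 0.0318 (limma, unadjusted p = 0.174, adjusted p = 0.999977). Sf3b2, which encodes the substrate of PRMT9, had 6 members with shares of 0.138, 0.147 and 0.162 in WT and 0.153, 0.159 and 0.188 in KO. The genotypes overlapped, and the difference of 0.0179 was 0.00736 without KO replicate 3.

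**Figure D5:**
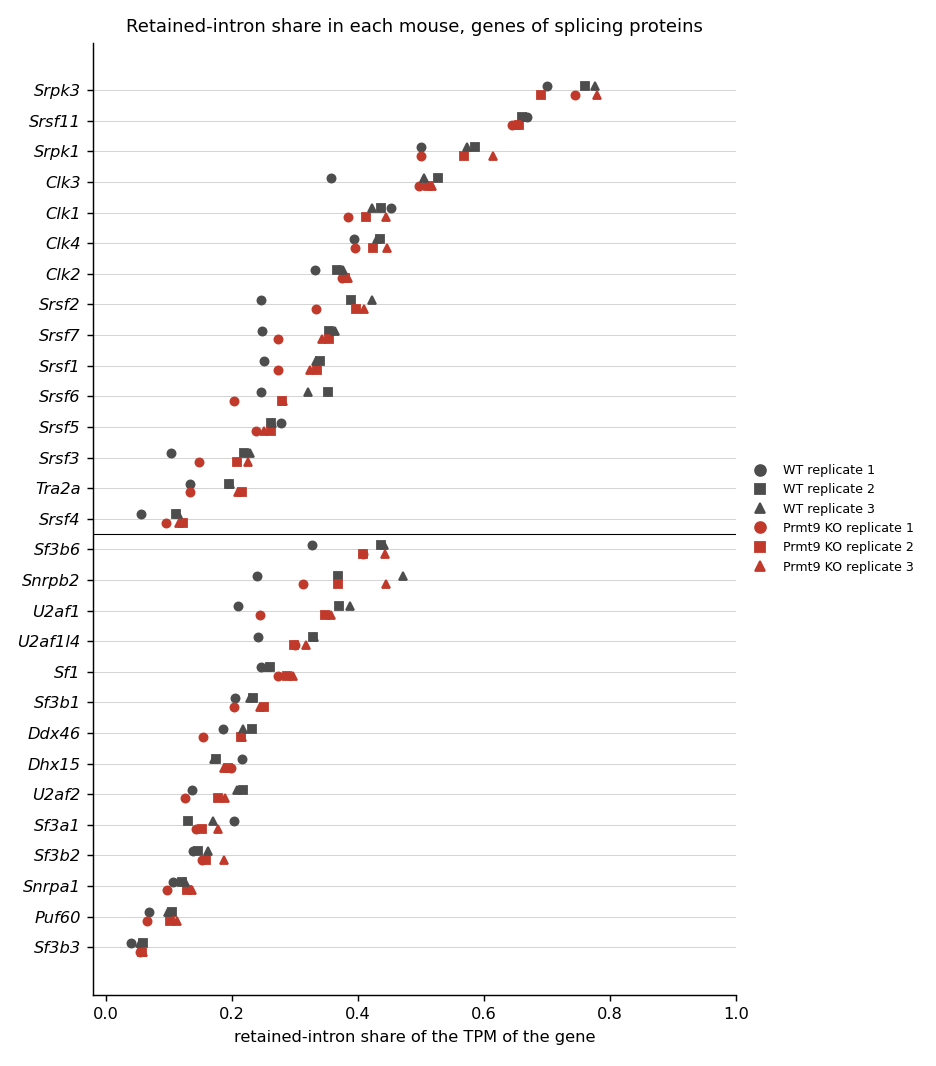
Retained-intron share of the TPM of the gene in each mouse for the 15 tested genes of SR proteins and their kinases (above the line) and the 14 tested genes of U2 and 3′ splice site recognition (below it). WT mice are gray, KO mice red, and circles are the mice numbered 1. In most genes the points of both genotypes intermingle, and circles are often leftmost.

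Genes with retention known in neurons or as a means of control numbered 12, of which 9 have members and 6 were tested. None were called (0% of the whole table), 3 were higher and 3 lower, and all 6 differences were under 0.05 in either direction. The genotypes were apart in 1 of the 6, against 9.06% of the whole table. Nxf1, the export receptor for messenger RNA whose own transcript is exported with an intron, had shares of 0.0725, 0.0770 and 0.0799 in WT and 0.0835, 0.0838 and 0.101 in KO. That 1 gene was Nxf1, with a difference of 0.0129 (limma, unadjusted p = 0.33, adjusted p = 0.999977) that was 0.00721 without KO replicate 3. Its members keep intron 11 whole (79 bases) and only parts of introns 10, 15 and 18, so its share covers these alone. Mat2a, the methionine adenosyltransferase whose intron is spliced when S-adenosylmethionine is scarce, had shares of 0.134, 0.175 and 0.156 in WT and 0.129, 0.148 and 0.143 in KO, with overlap. Its members keep intron 2 whole and parts of introns 1 and 3, so the Mat2a share does not measure the last of its 8 introns. Of 7 genes of RNAs that stay in the nucleus, 1 was measured (Snhg11) and its share was not tested.

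The study examined splicing in 10 genes by RT-PCR, and chose them on these samples. Of these, 7 have members and 5 were tested, with 0 called (0% of the whole table), 4 higher and 1 lower, and a median difference of 0.0143. The genotypes were apart in 1 of the 5, against 9.06% of the whole table. Ufsp2, a protease for the ubiquitin-like UFM1, had shares of 0.0607, 0.0971 and 0.0953 in WT and 0.0602, 0.114 and 0.121 in KO, with overlap. Fbf1, a protein of the cilium base, had shares of 0.0669, 0.104 and 0.111 in WT and 0.112, 0.119 and 0.118 in KO, narrowly apart (limma, unadjusted p = 0.215, adjusted p = 0.999977). Its difference of 0.0226 was 0.00922 without WT replicate 1. Rap1gap, a brake on the GTPase Rap1, had shares of 0.341, 0.292 and 0.307 in WT and 0.326, 0.312 and 0.348 in KO, which overlapped.

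The retained-intron type does not hold every annotated retention. Of 12181 introns of protein-coding transcripts that lie whole within an exon of another transcript of the gene, 8676 (71.2%) were held by a member, and 3505 (28.8%) were held by transcripts of other types alone. Ufsp2 has 1 such intron, of 80 bases at chr8:45980493-45980572, which is held by a nonsense-mediated decay transcript. Its 3 members keep parts of introns 4, 9 and 10 instead. In Fbf1, introns of 77, 80, 82 and 882 bases are held by processed transcripts, and its single member holds a stretch annotated as an intron of 323 or 333 bases. The shares of Ufsp2 and Fbf1 given here therefore do not measure their shortest retained introns.

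Single transcripts were also compared by their estimated counts. Of the 21457 members, 17750 passed the filter on low counts and 3707 did not. With edgeR (quasi-likelihood test) 0 were called at an adjusted p under 0.01 and a fold change above 1.5, and 0% of all 76871 transcripts tested. An unadjusted p under 0.05 was reached by 216 members, which is 1.22% of those tested against 1.61% of all transcripts. Of the 17750 members tested, 132 had this p and were higher in KO, against 649 of all 76871 transcripts (0.844%). Another 84 were lower, against 590 (0.768%). The median log2 fold change was 0.036 for members and 0.011 for all transcripts.

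DESeq2 called 10 of the 19857 members to which it gave an adjusted p, 7 higher and 3 lower, against 0.124% of all transcripts. They are named here because the count is small, after their values were seen. The lowest DESeq2 adjusted p values were those of the Tnik transcripts ENSMUST00000192205 (log2 fold change 1.32, adjusted p = 8.21e-21) and ENSMUST00000159733 (1.28, adjusted p = 2.7e-13). In edgeR the same transcripts had unadjusted p values of 2.99e-05 and 0.000176, but the edgeR adjusted p was 0.999997 for both, so edgeR called neither.

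The retained-intron transcript ENSMUST00000142824 of Prmt9 itself was among those lower in KO. It holds introns 4 and 5 and so spans the deleted exon 5, and stood at 0.578, 1.72 and 1.63 TPM in WT and 0.231, 0.368 and 0.345 TPM in KO. Smurf1, a ubiquitin ligase of the TGF-beta pathway, has a member that keeps a 908-base intron, with 1.77, 2.68 and 2.83 TPM in WT and 3.45, 4.10 and 4.08 TPM in KO. That of Ppp1r21, a protein of endosomes, was at 0.466, 0.468 and 0.611 TPM in WT and 1.36, 2.03 and 2.38 TPM in KO. For all 3 of these the genotypes did not overlap.

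The others rest on few or shared bases, or on 1 mouse. The members of Skiv2l (an RNA helicase of the exosome) and Itfg2 (of the KICSTOR complex) were at 0 in all WT mice. In KO they were at 0.761, 0.685 and 1.26 TPM and at 3.12, 1.86 and 1.89 TPM, and they are the 2 that diffSpliceDGE called. Both have 0 bases of their own. Qrich2 was at most 0.00196 TPM in WT and 0.0815 to 0.164 TPM in KO, with 4 bases of its own. The members of Rbm19 and Cd163l1 were called lower because of WT replicate 1, at 1.24 and 0.181 TPM, while the other 5 mice were at or near 0.

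The introns of the genes with separate shares were set beside those of all genes tested, as a description. They are all whole retained introns of these genes, whether or not the member that holds them differed, and Tnik has none. Over all genes tested the median length was 261 bases, with 32.3% under 150 bases. In the 104 genes with a higher share in KO there were 125 whole retained introns, with a median length of 213 bases and 39.2% under 150 bases. In the 71 genes with a lower share there were 63, with a median of 305 bases and 27.0% under 150 bases. CTNAC was present in the last 50 bases of 32.0% of the former and 41.9% of the latter, against 28.9% over all genes tested, among introns of at least 50 bases.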

How the data were processed

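The authors quantified paired 100-base reads against the mouse transcriptome with kallisto, and deposited 1 table per mouse. Its columns hold estimated counts per transcript (not whole numbers) and TPM per transcript, which the authors' tool scales by effective length to the same total. The submitters' notes name kallisto 0.46.0, and the study's methods name another version. A deposited gene table was not used. Groups and mouse numbers were taken from the sample titles.

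Transcript types and structures came from GENCODE M21 (116622 of 118783 identifiers matched). Shares were tested over genes with a mean of at least 1 TPM and a share between 0.05 and 0.95, as the log2 ratio after adding 0.1 TPM, with limma 3.58.1 (trended empirical Bayes). Rounded estimated counts were tested with edgeR 4.0.16, and with DESeq2 1.42.0 as an alternative, in R 4.3.3. The scripts were tested on simulated data. The sequences of introns that no transcript keeps were not used here, as no genome was at hand, so other introns are compared by length alone. The estimated counts do not carry the error of assigning reads among transcripts that share bases.

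Named genes were the 8 of smallest unadjusted p in each direction among those with separate genotypes and a share difference of at least 0.05, the 6 of highest retained-intron TPM, Ufsp2, Fbf1, and the 2 of smallest p in each list. The members and lists were chosen with earlier results of these data known. The main tests did not pair the mice. The replicate block, run as an alternative, paired same-numbered mice, although the sample titles do not say what a number marks. On the log2 ratio, deviations of same-numbered mice from their genotype means correlated across the 5526 genes (r = 0.517, 0.347 and 0.375). Mice 2 and 3 correlated about as well when crossed (0.331 and 0.364). The values thus set the mice numbered 1 apart and do not show which of mice 2 and 3 belong together. Replicates are separate mice. A withheld marker gene and a withheld intron sequence are not reported here.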

Additional observations from a re-analysis of the deposited data

How the results depend on the processing

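In the limma share test, 0 genes were called under every alternative run, and edgeR called 0 transcripts under each of its settings. Alternatives were other pseudocounts and filters, estimated counts in place of TPM, array weights, a term for the mice numbered 1, the replicate block and leaving out each mouse. diffSpliceDGE called 2 members and DESeq2 called 10. Genes with an unadjusted limma p under 0.05 numbered 86 in the main test (1.56% against 2.32% of the whole table). The replicate block gave 200 (3.62% against 4.37%). A term for the mice numbered 1 gave 355 (6.42% against 7.32%), and array weights gave 624 (11.3% against 12.6%). Leaving out both mice numbered 1, an alternative chosen after seeing the data, gave 396 (6.995% against 8.58%). In each of these settings the percent of genes was below that of the whole table, so the rises were not particular to retained-intron shares. With the replicate block the total share difference stayed at 0.169 percentage points, with pair differences of 0.736, -0.248 and 0.0183 (exact paired permutation p = 0.75, smallest possible 0.25). In edgeR the block gave 422 members under 0.05 in place of 216. A term for the mice numbered 1 gave 924, and leaving out both of those mice gave 1292. No share over all transcripts is given here for these counts, so the rises cannot be read as particular to members. The block changed no call of limma or edgeR, and was not run with DESeq2 or diffSpliceDGE.

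Leaving out 1 mouse, the total share difference ran from -0.461 to 0.515 percentage points, with -0.0967 without KO replicate 3, and without both mice numbered 1 it was -0.115. The genes with KO shares all above WT numbered 328 to 833 (highest without KO replicate 1), 403 without filters and 1210 without both mice numbered 1. Those all below numbered 288 to 1021 (highest without WT replicate 1), 107 with estimated counts, 299 without filters and 1210 without both mice numbered 1. Together, 27.8% of genes and 27.4% of the whole table were apart without WT replicate 1, and 20.1% and 20.2% without KO replicate 1. Leaving out another mouse gave 13.0% to 14.5% of genes and 14.2% to 16.8% of the table. Without filters it was 7.95% and 8.42%, and with estimated counts 7.42% and 8.37%. Without both mice numbered 1 it was 42.7% and 41.9%. Smaller groups separate more often by themselves, but sizes were equal whichever single mouse was left out. The median share difference ran from -0.00790 (without WT replicate 1) to 0.0117, with -0.00269 without KO replicate 3. The cause of these changes was not tested.

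The share difference itself does not depend on the pseudocount, filter, block, term for the mice numbered 1, array weights or empirical Bayes trend. It could change only with estimated counts or with mice left out. In genes chosen for separate genotypes, leaving out mice could not reverse it. Of 471 share differences of the 31 named genes under 16 settings, 462 kept their direction, a count that these points largely fix in advance. The 9 others were 3 of Ppia (0.0139 without WT replicate 2, 0.00550 without WT replicate 3, 0.0102 without KO replicate 1), 2 of Rps16 (-0.00121 without WT replicate 1, -0.00243 without KO replicate 3), 2 of Gpi1 (-0.0209 without WT replicate 1, -0.0115 without both mice numbered 1) and 2 of Clk3 (-0.00730 without WT replicate 1, -0.00126 without both mice numbered 1). Over the mice left out in turn, Ppia ran from -0.0367 to 0.0139, Rps16 from -0.00243 to 0.00821, Gpi1 from -0.0209 to 0.0362 and Clk3 from -0.00730 to 0.0772.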
